A study of Abies pinsapo with 12 samples.

Results

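Transcript ap_84836 of the Spanish fir (Abies pinsapo) was the object of the measurements below. Its best database hit was CYP720B12v2 of white spruce (Picea glauca), a cytochrome P450 of conifer resin acid synthesis. It was 1 of the 76481 assembled transcripts in the deposited count table. The transcript was picked because the study had singled it out from the contrast between bluish and green trees, so its own values in that contrast were taken as a description and were not tested. The study also reported a lower level of it in bluish trees by RT-qPCR (quantitative PCR of reverse-transcribed RNA), which was not examined here. RNA-seq had been run on needles of 6 bluish trees and 6 green trees, 1 library per tree, to compare the transcriptomes of both needle colours. All 12 were adult trees growing in the field in the Sierra de las Nieves (Yunquera, Spain), sampled in spring and chosen by the colour of their needles, with developing needles avoided. No treatment is named and the sources give no genotype, so that the colour of a tree and anything else that differs between individual wild trees cannot be told apart. The extraction text of the record describes roots of maritime pine seedlings, whereas the other labels and the study describe needles.

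Conifers store oleoresin, a mix of volatile monoterpenes and sesquiterpenes with diterpene resin acids, which seals wounds and deters insects and fungi. Geranylgeranyl diphosphate synthase makes the precursor of the diterpenes, and abietadiene synthase, a class of bifunctional enzyme known from firs and spruces, cyclizes it. P450 enzymes of the conifer CYP720B family then oxidize the diterpene skeleton to resin acids such as abietic acid. The catalytic role of CYP720B enzymes is known from spruces and pines, and the names used here for Spanish fir transcripts are those of their best hits.

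The libraries held between 66111176 and 79064155 counts in bluish trees and between 64978939 and 91973481 counts in green trees. Levels are given as CPM (counts-per-million of a library's total) scaled with TMM factors (trimmed mean of M-values), which lay between 0.947 and 1.04. Of all transcripts, 23352 passed a minimum of 2 CPM in 2 or more libraries and were fitted, and ap_84836 reached 2 CPM in all 12 libraries. The needle origin was looked up in 2 transcripts for the small subunit of RuBisCO, the carbon-fixing enzyme of photosynthesis. Transcript ap_2598 averaged 18.7 ± 9.44 CPM over the bluish trees, against 12.3 ± 4.28 CPM over the green trees (SD, n = 6 each). Transcript ap_81338 averaged 12.7 ± 6.38 CPM over the bluish trees, against 8.86 ± 3.10 CPM over the green trees (SD, n = 6 each). Neither was at 0 in any tree, and both were higher on average in bluish trees. The study reported a further RuBisCO small subunit transcript as lower in bluish trees, by RNA-seq and RT-qPCR, which was not examined here. No other tissue was in the counts, so these levels do not set needles apart from other tissues.

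The level of ap_84836 for bluish trees 1 to 6 was 9.84, 8.86, 5.79, 6.90, 5.59 and 9.14 CPM, against 10.3, 16.2, 8.44, 44.8, 6.06 and 10.6 CPM for green trees 1 to 6. A single tree, green tree 4, stood far above all others, and the remaining 5 green trees ran from inside the bluish range to above it. The bluish trees averaged 7.69 ± 1.83 CPM with a median of 7.88 CPM, and the green trees 16.1 ± 14.5 CPM with a median of 10.4 CPM (SD, n = 6 each). All 6 bluish trees lay under the green median, and 5 of 6 green trees lay over the bluish median. The groups nevertheless overlapped, with 4 green trees above the highest bluish tree and green trees 3 and 5 within the bluish range. Because needles were measured in bulk, fewer cells that make the transcript and less of it per cell cannot be told apart.

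The fitted log2 fold change (logFC, bluish over green) of ap_84836 was -1.06 (SE 0.42), which is given as a description only. Without green tree 4 it was -0.42, and the mean of the green trees was then 10.3 ± 3.76 CPM (SD, n = 5), against 7.69 ± 1.83 CPM in the bluish trees. Of the CPM added up over the 6 green trees, green tree 4 alone carried 46.5%, and it was 2.76 times as high as the next tree, green tree 2. When each other tree was left out in turn, the sign of the logFC stayed negative, and over all 12 settings it ran between -1.23 and -0.42.

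**Figure D1:**
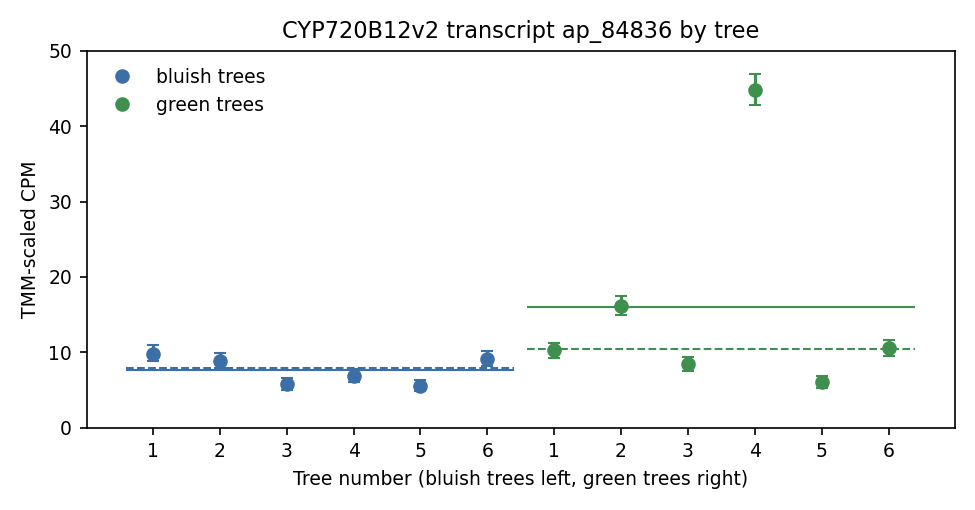
Level of the CYP720B12v2 transcript ap_84836 in each tree, in TMM-scaled CPM on a linear axis, with bluish trees on the left and green trees on the right. Points are trees, bars are 95% Poisson intervals of the read pairs, solid lines are group means and dashed lines are group medians. Green tree 4 is at 44.8 CPM, and the other 11 trees lie between 5.59 and 16.2 CPM.

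Counting error alone left the order of most trees open to exchange between neighbours. The counts behind the levels ran between 401 and 662 in bluish trees and between 517 and 3692 in green trees. Most low values in the table were even (76.0% of those between 1 and 29), as where both reads of a pair are counted, so intervals were computed on read pairs, and they cover counting error only. Ranked from bluish tree 5 at 5.59 CPM upward, the 95% Poisson interval of each tree overlapped that of the next tree up to green tree 6 at 10.6 CPM. Between neighbours, only the top of the order was set apart, with green tree 2 at 16.2 CPM (interval 15.0 to 17.5) and green tree 4 at 44.8 CPM (interval 42.8 to 46.9). Trees farther apart in the order could also differ by more than counting error. The intervals of bluish tree 5 (4.88 to 6.37) and green tree 6 (9.50 to 11.7), for example, did not overlap. A count of 0 would have allowed up to 0.0695 to 0.0908 CPM, depending on the library, and no tree came near that limit.

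The spread between trees was wider among the green trees. The bluish trees had a coefficient of variation of 23.8% for ap_84836, against 90.2% for the green trees, or 36.5% without green tree 4. On the log2 scale the SD of ap_84836 came to 0.35 over bluish trees against 1.01 over green trees, where the median fitted transcript had an SD of 0.24 over bluish and 0.25 over green trees. Among bluish trees, 29.8% of fitted transcripts had a larger SD than ap_84836. Among green trees, 5.65% had a larger SD, or 19.0% when green tree 4 was left out and the SD of ap_84836 was 0.52. The level of ap_84836 thus varied somewhat more than the typical transcript among bluish trees, and much more among green trees, mostly through green tree 4.

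A further transcript, ap_6739, had the same best hit, CYP720B12v2 of white spruce. Bluish trees 1 to 6 held 18.7, 21.6, 13.1, 14.2, 9.71 and 21.2 CPM of it, against 22.4, 37.7, 14.5, 38.7, 15.0 and 23.2 CPM for green trees 1 to 6. Bluish trees averaged 16.4 ± 4.81 CPM of ap_6739, against 25.3 ± 10.6 CPM for green trees (SD, n = 6 each). Its logFC of -0.62 (SE 0.28) did not pass the test (edgeR quasi-likelihood, FDR 0.775), and the groups overlapped. In green trees 4 and 2, ap_6739 reached nearly the same level (a ratio of 1.02), where ap_84836 differed 2.76-fold.

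Of all 23351 other fitted transcripts, ap_6739 had the profile most like that of ap_84836 over the 12 trees. Likeness was measured as Pearson's r of log2 CPM, here 0.87, with a Spearman's rho of 0.95. Both are descriptions, since the 12 points share the libraries and their depth and the reads of similar contigs may be exchanged between them. With green trees 4 and 2 left out, the trees farthest from the median of ap_84836, r was 0.89. Within the 6 bluish trees it was 0.92 and within the 6 green trees 0.86, where ap_6739 ranked 102 and 164 among all transcripts. With colour means subtracted r was 0.84 and the rank 13.

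The share of ap_84836 in the reads of both CYP720B12v2 transcripts stayed between 28.7% and 36.8% over 11 trees. It lay between 29.1% and 36.5% in bluish trees (32.3 ± 2.83%, SD, n = 6), and between 28.7% and 36.8% in green trees other than tree 4. In green tree 4 the share was 53.7% (95% exact binomial interval of the read pairs, 52.0% to 55.4%). Some of the other 11 trees also differed by more than counting error, as green tree 5 (interval 25.7% to 31.7%) and green tree 3 (33.6% to 40.2%). Added together, both transcripts averaged 24.1 ± 6.53 CPM over bluish trees, against 41.3 ± 23.7 CPM over green trees (SD, n = 6 each), with 83.5 CPM in green tree 4 and 54.0 CPM in green tree 2. Green tree 4 was therefore high in the sum as well, and only there did ap_84836 account for more of the reads than ap_6739. Whether ap_84836 and ap_6739 are separate genes, alleles or splice forms cannot be read from counts, and the study had merged near-identical contigs before mapping, so the division of reads between them is uncertain.

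**Figure D2:**
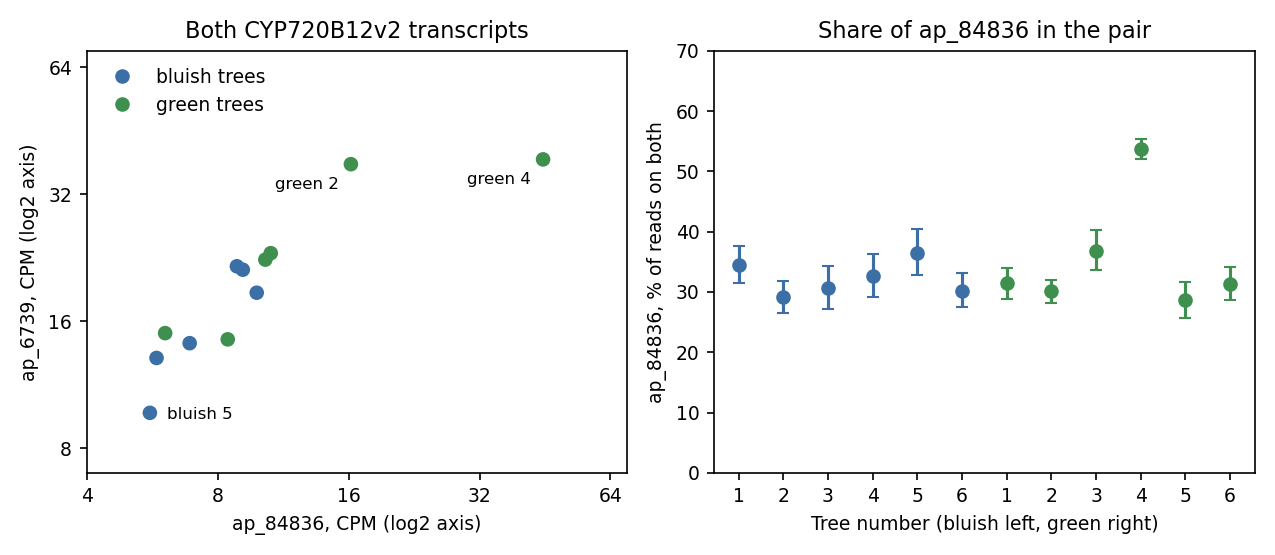
Left, CPM of ap_6739 against CPM of ap_84836 in the 12 trees, both on log2 axes; right, the percentage of ap_84836 in the reads of both transcripts for bluish trees (left) and green trees (right), with 95% exact binomial intervals. The trees line up on the left (r = 0.87), and on the right green tree 4 is at 53.7% whereas the other 11 trees lie between 28.7% and 36.8%.

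Among the other CYP720B transcripts, the profile of ap_66344 was closest. Its best hit was CYP720B2 of Sitka spruce (Picea sitchensis), and it measured 12.4, 16.5, 11.1, 12.1, 6.88 and 13.2 CPM for bluish trees 1 to 6, against 16.3, 28.4, 13.5, 20.6, 13.0 and 13.5 CPM for green trees 1 to 6. The likeness of ap_84836 to ap_66344 was r = 0.72 and rho = 0.83, and r = 0.69 without green trees 4 and 2. Within bluish trees r was 0.74 and within green trees 0.66, and with colour means subtracted it was 0.62. Its logFC of -0.55 (SE 0.23) did not pass the test (edgeR quasi-likelihood, FDR 0.773). Green tree 2 was its highest tree and green tree 4 the next, and its lowest was bluish tree 5, also the lowest of ap_84836 and ap_6739.

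A different profile was seen for ap_88221, whose best hit was CYP720B4 of white spruce, an enzyme known in spruce to oxidize several diterpenes in successive steps to resin acids. Bluish trees 1 to 6 had 0.676, 1.77, 1.54, 44.9, 0.768 and 1.75 CPM, against 3.77, 1.76, 71.2, 2.65, 130.3 and 2.01 CPM for green trees 1 to 6. It was thus high in bluish tree 4 and green trees 3 and 5 and low in the other 9 trees, in both colours. None of these 3 trees was high in ap_84836, where they were at 6.90, 8.44 and 6.06 CPM. Its likeness to ap_84836 was r = -0.22 and rho = 0.04, and r = -0.24 without green trees 4 and 2. With colour means subtracted r was -0.50, and within bluish and green trees it was -0.14 and -0.64. The logFC of ap_88221, -2.04 (SE 1.37), did not pass the test (edgeR quasi-likelihood, FDR 0.840).

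The remaining CYP720B transcripts were less like ap_84836. For ap_84931, with CYP720B7 of Sitka spruce as its best hit, r was 0.45 and rho 0.44, averaging 0.904 ± 0.471 CPM over the bluish trees, against 1.70 ± 0.543 CPM over the green trees (SD, n = 6 each). For ap_56693, with CYP720B9 of Sitka spruce as its best hit, r was 0.33 and rho 0.49, averaging 4.25 ± 1.97 CPM over the bluish trees, against 6.47 ± 1.04 CPM over the green trees (SD, n = 6 each). Without green trees 4 and 2, r was 0.41 for ap_84931 and 0.06 for ap_56693. With colour means subtracted, r was 0.23 for ap_84931 and 0.06 for ap_56693. Within bluish and green trees, r was 0.47 and 0.21 for ap_84931, and -0.38 and 0.55 for ap_56693. The 5 other CYP720B transcripts were named in a table ordered by the colour contrast and had a negative logFC, so part of a positive r was set by that choice. Across the family the likeness to ap_84836 thus ran from r = 0.87 for the transcript with the same best hit to r = -0.22 for the CYP720B4 transcript.

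Upstream of the P450 step, the transcript for bifunctional abietadiene synthase (ap_79765, best hit in Abies balsamea) followed ap_84836. Its level was 4.06, 2.78, 1.82, 1.87, 1.34 and 2.88 CPM for bluish trees 1 to 6, against 5.54, 7.18, 2.77, 5.68, 3.41 and 2.47 CPM for green trees 1 to 6. Like ap_84836 it was lowest in bluish tree 5, and its highest trees were green trees 2, 4 and 1. The likeness of ap_84836 to ap_79765 was r = 0.72 and rho = 0.77, and 0.300% of fitted transcripts had a higher r. With colour means subtracted, r was 0.61. The name of ap_79765 came from a table ordered by the colour contrast, and its logFC was negative (-0.88), as was that of ap_84836. Part of its r and rank was set by that choice. Without green trees 4 and 2, r was 0.68, and within bluish and green trees it was 0.95 and 0.57. Green tree 4 had 0.791 times the ap_79765 level of green tree 2, unlike the 2.76-fold excess seen for ap_84836.

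The transcript for geranylgeranyl diphosphate synthase (ap_6612, best hit in Abies grandis), which supplies the diterpene precursor, averaged 2.62 ± 0.581 CPM over the bluish trees, against 4.91 ± 2.55 CPM over the green trees (SD, n = 6 each). Its r with ap_84836 was 0.40 and its rho 0.31, and r dropped to 0.14 without green trees 4 and 2. With colour means subtracted, r was 0.19. It was highest in green trees 1 and 2, at 8.04 and 7.78 CPM, where ap_84836 was at 10.3 and 16.2 CPM. This transcript, ap_6612, was therefore less like ap_84836 than the abietadiene synthase transcript ap_79765 in these 12 trees.

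Other prenyl diphosphate synthases, which make precursors of monoterpenes and other terpenes, varied with ap_84836 when all trees were included. All 5 on the list had a positive r (0.54 to 0.74, median 0.68), where the median over all fitted transcripts was 0.01. They were named in a table ordered by the colour contrast and all had a negative logFC, as had ap_84836, so part of a positive r was set by that choice. With colour means subtracted, r was 0.38 to 0.72 (median 0.61). The highest was geranyl diphosphate synthase 2 (ap_33701, best hit IDS2 of Norway spruce, Picea abies), averaging 9.50 ± 2.92 CPM over the bluish trees, against 13.9 ± 8.84 CPM over the green trees (SD, n = 6 each), with r = 0.74 and rho = 0.71. The geranyl diphosphate synthases GPPS2 (ap_33375) and GPPS1 (ap_71291), both with best hits in Abies grandis, had r = 0.68 and rho = 0.57, and r = 0.59 and rho = 0.45. All 5 were highest in green tree 2 rather than green tree 4. Without green trees 4 and 2, r was 0.58 for ap_33701, 0.26 for ap_33375 and 0.31 for ap_71291. Over all 5 it then ran from -0.02 to 0.69, so part of this likeness rested on those trees.

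The 16 terpene synthases listed besides abietadiene synthase showed little common variation with ap_84836, with r between -0.46 and 0.49 and a median of -0.10. Their best hits were named for monoterpene, hemiterpene or sesquiterpene synthesis, except putative terpene synthases with no product in the name. Highest in mean CPM, with contig length not considered, were alpha-bisabolene synthases ap_59189 (best hit in Abies grandis) and ap_16465 (Picea abies) and linalool synthase ap_13820 (Picea glauca), with r of -0.20, -0.20 and -0.32. In green tree 4, the highest tree of ap_84836, these were at 14.4, 7.21 and 1.26 CPM, against medians of 59.9, 17.8 and 12.5 CPM over the bluish trees. Of the 16, 12 were lower in green tree 4 than the bluish median and 4 were higher. Those 4, named after their values were seen, included farnesene synthases ap_1023 (19.3 CPM against a bluish median of 2.27) and ap_13652 (20.6 CPM against 3.90). The matching share over all fitted transcripts is not given here. The 16 were named in a table ordered by the colour contrast, 9 had a positive logFC, and several share a best-hit name. The count is therefore not read as a result about terpene synthases. Green tree 4 decided the direction: without it, r was positive for 15 of the 16 (median 0.36), and 0.35, 0.27 and 0.31 for ap_59189, ap_16465 and ap_13820. The exception was camphene synthase (ap_70960), with no count in 7 trees and r = -0.57 without green tree 4.

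Of 11 P450 transcripts of other families, 5 had a positive r (range -0.39 to 0.58, median 0.00). Highest in mean CPM, with contig length not considered, were ap_5337 (best hit CYP74A1, a family of oxylipin synthesis; r = 0.00), ap_16110 (CYP750A10; r = -0.24) and ap_33943 (CYP76AA27; r = 0.58). The values of these 11 lay on both sides of 0. Among them, ap_58158 had its best hit (CYP4G15) in Anthurium amnicola, a source of hits looked at below as another organism, so its origin in the fir is uncertain.

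**Figure D3:**
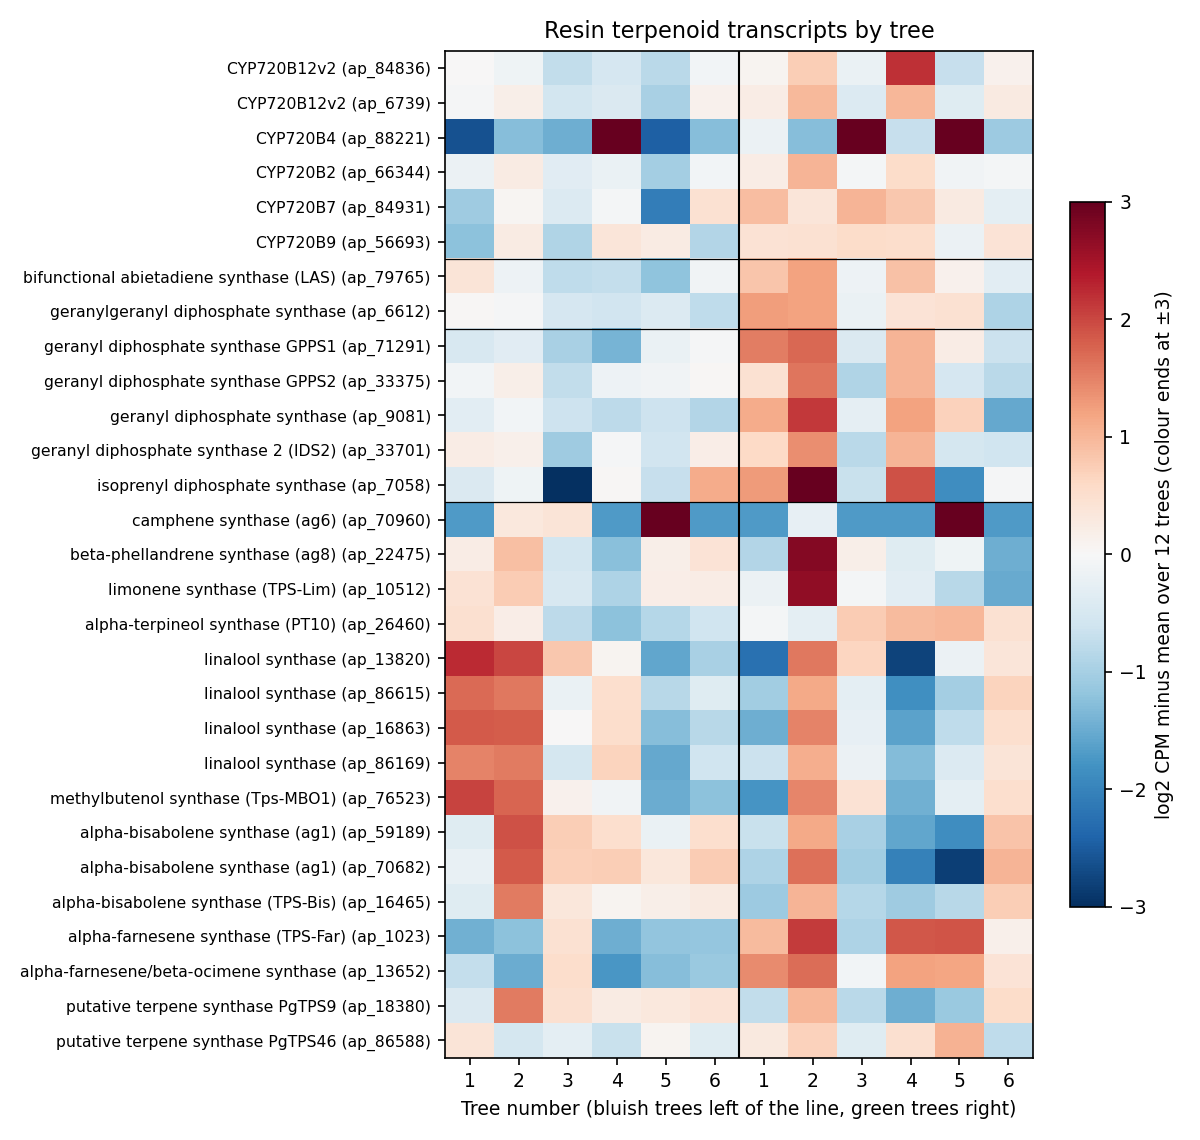
Log2 CPM of ap_84836 (top row) and 28 other terpenoid transcripts in each tree, minus the mean of the transcript over the 12 trees, with bluish trees left of the line and green trees right of it. Red is above and blue below the mean, and colours end at 3 log2 units either way. The deepest red in the column of green tree 4 is in the top row (44.8 CPM), and the column of green tree 2 is red in most rows.

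Counts by tree were also taken for both green trees that were high in ap_84836. Of the 28 other terpenoid transcripts (5 CYP720B, 2 of the diterpene step, 5 prenyl diphosphate synthases, 16 terpene synthases), 11 were highest in green tree 2, where 8.59% of all fitted transcripts were highest. In green tree 4, 1 of the 28 was highest, ap_6739, where 7.72% of all fitted transcripts were highest. At the low end, 5 of the 28 were lowest in bluish tree 5, as was ap_84836, against 10.1% of all fitted transcripts. Names came from the table ordered by the colour contrast, and 19 of the 28 had a negative logFC. A maximum in some green tree was thus partly set by that choice, and the shares over all fitted transcripts are not a like baseline. The 11 include all 5 prenyl diphosphate synthases, and the other counts are small, so none is read as a result about terpenoid transcripts.

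None of these 28 transcripts, nor the 11 other P450 transcripts, was DE between bluish and green trees (edgeR quasi-likelihood test, FDR under 0.05 and |logFC| over 1, with FDR between 0.755 and 0.968). The same test called 1 of all 23352 fitted transcripts, 0.00428%. At an unadjusted p under 0.05, 0 of the 39 were higher on the bluish side and 12 on the green side, where 6.33% of all fitted transcripts passed, 3.07% higher in bluish and 3.26% higher in green trees. DESeq2 called 2 of the 39 (0.0942% of all fitted transcripts), and edgeR's exact test at a common dispersion 7 (1.94%), all higher in green trees. Names were at hand only for 7.34% of fitted transcripts, from a table that had been ordered by this contrast, so the list was drawn from transcripts with large differences and its counts say nothing about terpenoid transcripts as a group. The median logFC was -0.59 for the 28 terpenoid transcripts and 0.00 for all fitted transcripts.

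Transcripts with a profile like that of ap_84836 were then ranked over the whole table. An r of at least 0.8 was reached by 15 transcripts, or 52 without green tree 4, and 34 had an r of -0.8 or lower with all trees. After ap_6739, the most similar were ap_10114 (r = 0.85), ap_5101 (0.84), ap_54424 (0.84), ap_6038 (0.83), ap_14720 (0.83), ap_580 (0.82), ap_23459 (0.82), ap_73117 (0.82) and ap_6841 (0.82). Of these, a best hit was at hand only for ap_73117, a glycosyltransferase of the conifer Araucaria cunninghamii. Green tree 4 was the highest tree in 9 of the 10, and green tree 2 in ap_14720.

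Several of these likenesses rested on green tree 4. Without it, r was 0.79 for ap_10114, 0.85 for ap_14720 and 0.75 for ap_6841, but 0.56 for ap_5101, 0.48 for ap_54424 and 0.23 for ap_6038. Likewise it was 0.52 for ap_580, 0.53 for ap_23459 and 0.58 for ap_73117. Only 1 of the 10, ap_6739, was among the 10 most similar without green tree 4, where its r was 0.94 and its rank 2. The rank order of trees was close to that of ap_84836 for ap_10114 (rho = 0.88) and ap_6841 (rho = 0.82), and much less so for ap_54424 and ap_6038 (rho = 0.38 each).

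At the opposite end were ap_21505 (r = -0.91, rho = -0.87), ap_19006 (r = -0.89, rho = -0.73) and ap_5545 (r = -0.88, rho = -0.41), for which no best hit was at hand. All 3 were lowest in green tree 4. Their levels varied over 10.4 to 27.6, 22.0 to 32.4 and 46.7 to 65.2 CPM. For ap_21505 the inverse profile was also present without green tree 4 (r = -0.87), whereas r was then -0.65 for ap_19006 and -0.62 for ap_5545.

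**Figure D4:**
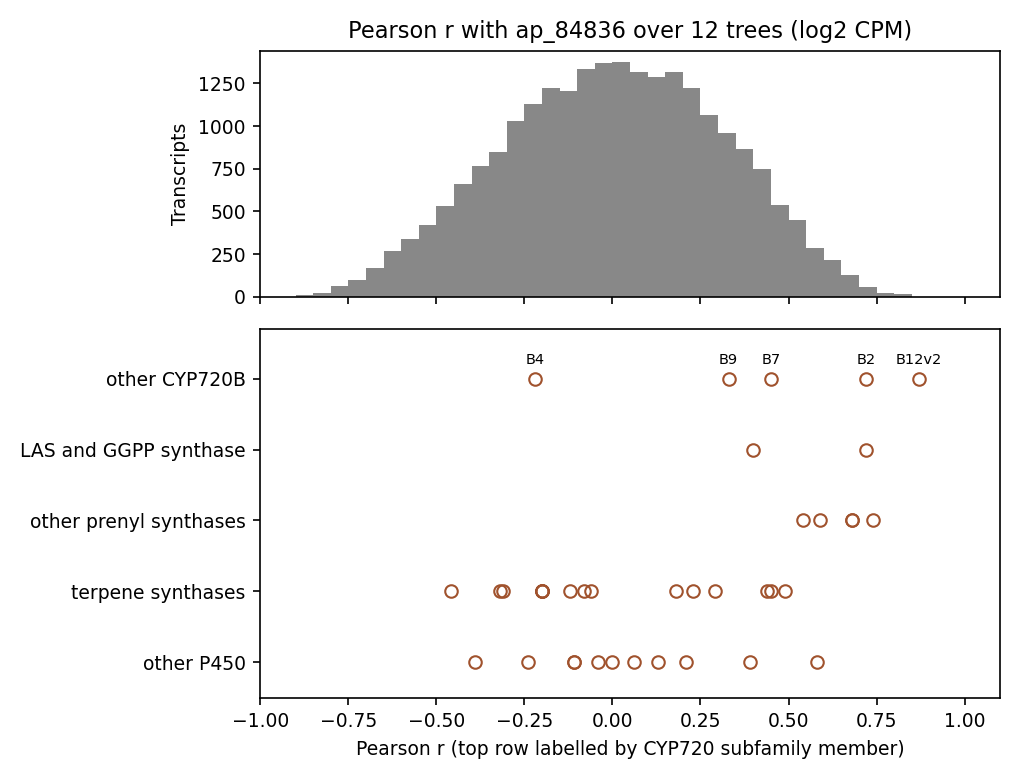
Top, number of fitted transcripts by Pearson r with ap_84836 over the 12 trees; bottom, r of the listed transcripts by group, 1 circle per transcript, with abietadiene synthase abbreviated LAS. The distribution over all transcripts centres on 0.01, the other CYP720B12v2 transcript lies at 0.87, the 5 other prenyl diphosphate synthases lie between 0.54 and 0.74, and terpene synthases and other P450 transcripts lie on both sides of 0.

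Green tree 4 also stood apart in transcripts with best hits in other organisms, which were looked at because needles in the field can carry other life. The 58 transcripts with best hits in the hornbeam Carpinus fangiana summed to 46.0 to 138 CPM in bluish trees and 57.8 to 545 CPM in green trees, with 545 CPM in green tree 4, and 56 of them were highest there, where 7.72% of all fitted transcripts were highest. Transcripts with best hits in green algae (15) summed to 20.6 to 46.8 CPM in bluish trees and 36.9 to 206 CPM in green trees, with 206 CPM in green tree 4, and 12 of them were highest there. Those with best hits in Anthurium amnicola (31) summed to 84.6 to 145 CPM in bluish trees and 92.3 to 239 CPM in green trees, with 180.5 CPM in green tree 4 and the maximum in green tree 5, and 17 of them were highest in green tree 4. Names came from the table ordered by the colour contrast, and the logFC was negative for 58, 14 and 28 of the transcripts on these 3 lists, so a maximum in some green tree was largely set by that choice. All 6 bluish trees held counts for each of the 3 lists, and 1 green algal transcript was at 0 in green tree 4. Green tree 5, next after green tree 4 for Carpinus fangiana (265 CPM) and green algae (74.0 CPM), had ap_84836 at 6.06 CPM, among the 3 lowest trees. The part of these other organisms in the ap_84836 level of green tree 4 was not tested.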

How the data were processed

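Needle RNA of 6 bluish and 6 green trees was sequenced as paired reads from poly(A) RNA, 1 library per tree, and groups were taken from the labels. The deposited file holds raw read counts per contig. To make them, the authors cleaned reads with SeqTrimBB, built contigs with Trinity, thinned redundant contigs with CD-HIT-EST, mapped pairs with BWA MEM and counted them through sam2counts. Contig lengths were not used here, so CPM is not a level per length, and its order between transcripts served only to pick those named. Whether a stranded kit was used is not given in the sources used here. Best hits came from the study's annotation table, which was held in part (1714 transcripts), and its contrast columns were not used.

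Transcripts reaching 2 CPM in 2 or more libraries entered the fit (98.7% to 99.3% of counts). R 4.3.3 ran edgeR 4.0.16 (and its dependency limma 3.58.1) for TMM factors and the quasi-likelihood test on colour, and p was adjusted by Benjamini-Hochberg over all transcripts fitted. Log2 CPM used a prior count of 2. Intervals were exact Poisson or exact Clopper-Pearson (95%) on read pairs, as counts divided by 2. A count of 0 allows 6 counts (3 read pairs). Alternatives were DESeq2 1.42.0, an exact test with a common dispersion, other filters, scaling factors and prior counts, Spearman's rho, colour means subtracted, a replicate block, and leaving out each tree. A chi-square test between libraries of 1 colour gave 26.5 to 73.7 per degree of freedom, so none was deposited again under another name within its colour. Pairs across the colours were not examined. The sources name trees and not repeated harvests, so p-values measure the spread between trees. Figures and tables came from Python 3.11.15, pandas 2.3.3 and matplotlib 3.10.9, and the scripts were tested on simulated data.

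Transcript ap_84836 and the lists were chosen with earlier results of these data known. Named with values were ap_84836, the other CYP720B transcripts, abietadiene synthase, geranylgeranyl diphosphate synthase, list members past the test, the 3 with the highest mean CPM in each other list, and the 10 highest and 3 lowest in Pearson's r. Camphene synthase and the farnesene synthases were named after its values were seen.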

Additional observations from a re-analysis of the deposited data

Results flagged for a closer look

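In each group of 6 trees, a tree was marked where its gap to the nearest other tree exceeded 0.625 of the range of the group (Dixon's rule). Of 60 groups looked at, 9 were marked. The rule marks about 1 in 20 groups by chance where values are independent and normally distributed. CPM on a linear scale need not be so distributed, and some of the transcripts vary together. The 9 marks can therefore not be set against that rate. The 60 are not a random draw, since ap_84836 was chosen for the colour contrast and some transcripts for their likeness to it.

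For ap_84836, green tree 4 was marked at 44.8 CPM, against 6.06 to 16.2 CPM in the other green trees. The share of ap_84836 in the reads of both CYP720B12v2 transcripts was marked in the same tree, at 53.7%, against 28.7% to 36.8% in the other green trees. Green tree 4 was also marked for ap_6038, at 17.7 CPM, against 6.13 to 8.49 CPM in the other green trees. As ap_6038 was looked at only for its likeness to ap_84836, which rests on that tree (r = 0.83, or 0.23 without it), this mark follows from the choice.

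In the CYP720B family, bluish tree 4 was marked for the CYP720B4 transcript ap_88221 at 44.9 CPM, against 0.676 to 1.77 CPM in the other bluish trees. Green tree 5 was marked at the low end for the CYP720B9 transcript ap_56693 at 4.41 CPM, against 6.60 to 7.22 CPM in the other green trees.

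Bluish tree 2 was marked for alpha-bisabolene synthases ap_59189, at 159 CPM against 32.6 to 70.1 CPM in the other bluish trees, and ap_16465, at 45.0 CPM against 11.8 to 19.3 CPM. For the CYP74A1 transcript ap_5337, green tree 2 was marked at 34.2 CPM, against 10.6 to 19.3 CPM in the other green trees. The CYP750A10 transcript ap_16110 was marked in green tree 5 at 38.3 CPM, against 11.4 to 21.0 CPM in the other green trees.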

How the results depend on the processing

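The logFC of ap_84836 (-1.06) stayed negative under every alternative run, between -1.23 and -0.42 over the settings that leave out 1 tree, and green tree 4 decided its size. Without green tree 4 the likeness to ap_6739 was 0.94, and over all settings that leave out 1 tree it ran between 0.86 and 0.94. With Spearman's rho it was 0.95. The rank of ap_6739 lay between 1 and 8 over those settings, and was 13 with colour means subtracted, 102 within bluish trees and 164 within green trees (within-colour settings added after seeing the data). The other 9 of the most similar transcripts were less stable. Of the 10 named, 2 were shared with Spearman's rho, 1 with colour means subtracted, 1 without green trees 4 and 2, and between 1 and 8 when 1 tree was left out, where the setting without green tree 4 shared 1. The number of transcripts called was 1, and became 3 with the filterByExpr filter, 22 with DESeq2 and 453 with the exact test with a common dispersion, and 1 or 2 without 1 tree. Of the 39 terpenoid and other P450 transcripts, the quasi-likelihood test called 0 in each setting that leaves out 1 tree, DESeq2 called 2, the exact test called 7, and an unadjusted p under 0.05, chosen after seeing the data, gave 12. The cause of these differences was not tested. Replicate numbers did not pair the trees: deviations of trees with the same number correlated at -0.136 to 0.109, and 1 of 6 trees correlated best with its own number. With the number as a replicate block, 0 transcripts were called and the logFC of ap_84836 was -0.71.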
